A study of Homo sapiens with 9 samples.

Results

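The epidermal differentiation complex is a dense cluster of genes on human chromosome 1 that encode proteins of the outer skin. Its genes were taken here as every protein-coding row of the deposited table that lay on chromosome 1 in the stretch that runs from S100A10 (start at 151982915 in hg38) to S100A1 (end at 153632039). This rule used position and gene type and no measured value, and it gave 64 genes out of 58676 in the table, of which 19821 were protein-coding. The RNA came from HaCaT, a spontaneously immortalised line of human keratinocytes, so that all values describe 1 cell line. The 3 groups were 10 µM PRL-295, 250 nM CDDO-Me and 1% DMSO, each applied in DMEM culture medium for 14 h and each with 3 libraries. CDDO-Me, also called bardoxolone methyl, is a synthetic triterpenoid and electrophile known to activate the antioxidant transcription factor NRF2, PRL-295 is known here only by its code name, and DMSO was the vehicle control. The labels name DMSO for the control alone, and do not say if replicate libraries were grown as separate cultures, so the p-values measure the spread between these libraries, which may be technical.

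Keratinocytes leave the basal layer of the epidermis, mature, and die as flat corneocytes. During that passage the plasma membrane is replaced by the cornified envelope, a shell of proteins joined by transglutaminases. The complex encodes much of that shell. Involucrin (IVL) is laid down early, loricrin (LOR) and the late cornified envelope (LCE) proteins come later, and the small proline-rich (SPRR) proteins act as cross-bridges between them. Filaggrin (FLG) and the other fused-type proteins join an S100-like calcium-binding domain to long repeats, and bundle keratin or reinforce the envelope. The S100 genes at the flanks of the complex encode small calcium-binding proteins, among them S100A8 and S100A9, which pair as calprotectin and are known as alarm signals of inflamed skin.

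In these cells the S100 genes and a few envelope precursors were transcribed, while most late envelope genes had few reads or none. Involucrin fell with PRL-295 and with CDDO-Me. S100A9 also fell with PRL-295, whereas SPRR2E, a cross-bridge precursor, and PRR9, a proline-rich gene next to the SPRR block, rose with CDDO-Me. No other gene of the complex passed the test for either compound, and none did when PRL-295 was set directly against CDDO-Me.

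The stretches upstream of IVL, S100A9 and PRR9, which carry most of these calls, are shown together with those of SPRR2A and SPRR1B, whose values are given beside them below. SPRR2E and SPRR2D are named only. Sequences are RefSeq's for GRCh38.p14, written 5′ to 3′ on the strand of the gene and ending just before its start in the deposited table. Capitals mark matches to the AP-1 motif TGANTCA, to the antioxidant response element core TGANNNNGC and to the TATA box TATAAA, each searched on both strands.
IVL: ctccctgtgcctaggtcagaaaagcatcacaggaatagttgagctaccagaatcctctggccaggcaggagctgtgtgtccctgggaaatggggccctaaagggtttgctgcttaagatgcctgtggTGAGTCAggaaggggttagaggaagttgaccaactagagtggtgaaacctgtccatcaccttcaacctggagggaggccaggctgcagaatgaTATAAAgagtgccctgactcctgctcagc
S100A9: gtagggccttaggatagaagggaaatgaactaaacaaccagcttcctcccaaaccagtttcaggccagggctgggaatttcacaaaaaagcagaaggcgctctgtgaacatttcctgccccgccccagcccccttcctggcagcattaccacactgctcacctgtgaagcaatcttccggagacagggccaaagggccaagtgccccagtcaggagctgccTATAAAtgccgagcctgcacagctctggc
PRR9: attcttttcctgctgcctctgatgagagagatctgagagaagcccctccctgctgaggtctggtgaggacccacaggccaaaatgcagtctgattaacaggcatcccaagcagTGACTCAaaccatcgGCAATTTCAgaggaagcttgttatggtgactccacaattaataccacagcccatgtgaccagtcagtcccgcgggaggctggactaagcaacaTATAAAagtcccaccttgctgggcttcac
SPRR2A: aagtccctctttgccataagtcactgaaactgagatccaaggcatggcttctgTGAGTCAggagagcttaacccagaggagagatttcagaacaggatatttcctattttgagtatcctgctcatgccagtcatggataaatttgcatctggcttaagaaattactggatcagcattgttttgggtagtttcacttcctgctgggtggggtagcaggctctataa
SPRR1B: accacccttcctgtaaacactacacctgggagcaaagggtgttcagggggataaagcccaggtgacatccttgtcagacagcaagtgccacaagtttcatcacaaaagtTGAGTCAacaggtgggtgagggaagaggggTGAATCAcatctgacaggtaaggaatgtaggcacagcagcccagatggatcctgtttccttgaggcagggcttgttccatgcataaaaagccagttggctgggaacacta
They lie on chromosome 1 at chr1:152908296-152908544 (IVL, plus strand), chr1:153357604-153357853 (S100A9, plus), chr1:153217334-153217583 (PRR9, plus), chr1:153057538-153057762 (SPRR2A, minus) and chr1:153030953-153031201 (SPRR1B, plus). Counted back from RefSeq's start site, the AP-1 motif stood as TGAGTCA at -123 to -117 in IVL, as TGACTCA at -137 to -131 in PRR9 and as TGAGTCA at -197 to -191 in SPRR2A. SPRR1B held it at -141 to -135 and, as TGAATCA, at -111 to -105, and the S100A9 window did not hold it. In PRR9 the element core lay on the other strand and reads GCAATTTCA, at -122 to -114. The TATA box began 30 bases before the start of IVL and 29 bases before those of S100A9 and PRR9. SPRR2A also holds a match, which reaches past the end of the stretch shown and so carries no capitals.

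Over 250 upstream bases the AP-1 motif occurred in 19 of the 56 genes of the complex with a RefSeq entry (33.9%), against 6.57% of 35116 promoters in all. Among the 33 with an entry that were also tested, 14 held it, IVL, SPRR1A, SPRR1B, SPRR2A, PRR9, FLG and S100A2 among them. The TATA box was found in 31 of 56 (55.4%), against 10.7% of all promoters. The antioxidant response element core was found in 25 of 56 (44.6%) and in 11 of the 33 tested (33.3%), against 35.2% of all. Genes of the complex were counted once each, while the shares of all are over promoter entries, so these shares are not strictly alike. An AP-1 match followed by GC also matches the element core. These are matches of letters, and binding was not measured.

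Library totals ran from 23383800 to 32942156 counted reads, so that 3 reads, taken as the floor, corresponded to 0.0911 to 0.128 CPM (counts scaled to a common library total). The floor carries no TMM factor, while the CPM values of genes do. Genes of the complex took 0.251% to 0.427% of the reads. CDDO-Me library 1 stood apart from the others: 14543 genes had a read there, against 17821 to 23271 elsewhere, and it held the highest of 9 values for 8 of 36 tested genes of the complex and the lowest for 14. Over all tested genes it held the lowest value for 32.3%. Libraries also differed in how their deviation from the overall mean followed gene GC content, with r across genes of at least 1 CPM of -0.48, 0.32 and -0.15 for PRL-295, 0.01, -0.66 and -0.23 for CDDO-Me, and 0.32 to 0.37 for DMSO. Keratinocyte markers were all tested, with sums of 10986 to 11714 CPM with PRL-295, 17079 to 19260 CPM with CDDO-Me and 13384 to 14350 CPM with DMSO, while fibroblast, melanocyte, immune and endothelial lists each summed to at most 13.1 CPM in any library. Of the 7 keratinocyte markers 5 rose with CDDO-Me, while KRT15 went the other way, 7.85-fold lower than with DMSO (edgeR adjusted p = 4.08e-06). With PRL-295 against DMSO 4 of the 7 had negative log2 fold changes and 3 positive ones. KRT15 alone passed there, 2.13-fold lower (0.00702). The part of these lists in the results below, and that of the GC trend beyond the correction given there, was not tested. The collagen gene COL3A1, the pigment enzyme gene TYR and the endothelial marker PECAM1 had no read in any library. The NRF2 targets NQO1, HMOX1, TXNRD1 and GCLM all rose with PRL-295 and with CDDO-Me.

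Of the 64 genes, 36 had enough reads to be tested (56.3%, against 65.7% of all protein-coding genes in the table). Another 17 had some reads and 11 had none in any of the 9 libraries. The tested genes were 15 of 17 S100 genes, 8 of 11 SPRR genes, 4 of 18 LCE genes, 4 of 7 fused-type genes and 5 of the 11 others. Loricrin, a main component of the mature envelope, was not tested: it had 0 reads in the 6 libraries of both compounds, and 5, 0 and 8 reads in DMSO libraries 1 to 3. The 11 genes without a read were LCE3C, LCE3B, LCE2D, LCE2C, LCE2B, LCE2A, LCE4A, LCE6A, the keratinocyte proline-rich gene KPRP, LELP1 and S100A7L2. Among genes with reads but too few for the test was LCE1B, with 86 reads in all, 75 of them in CDDO-Me library 1.

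Levels per length were compared in FPKM as deposited. S100A11, whose product binds annexin A1, averaged 1185 FPKM over the 9 libraries and ranged from 718 to 1507. Next came S100A2 at 416 FPKM, a nuclear S100 protein of basal keratinocytes, then S100A10 at 342, S100A16 at 325, S100A14 at 308 and S100A6 at 298. The ranges of S100A2, S100A10, S100A16, S100A14 and S100A6 over libraries overlapped, so their order is not fixed by these data. These 6 genes held 92.1% of all reads of the complex. SPRR1B at 87.9 FPKM and S100A9 at 41.6 FPKM followed, with ranges of 52.5 to 141 and 28.8 to 63.7. SPRR1A averaged 14.7 FPKM, IVL 12.2, S100A8 9.40, SPRR2E 8.39 and FLG 7.32, and their ranges overlapped. At the low end were TCHH at 0.51, HRNR at 0.17, SPRR3 at 0.16 and RPTN at 0.13 FPKM.

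**Figure D1:**
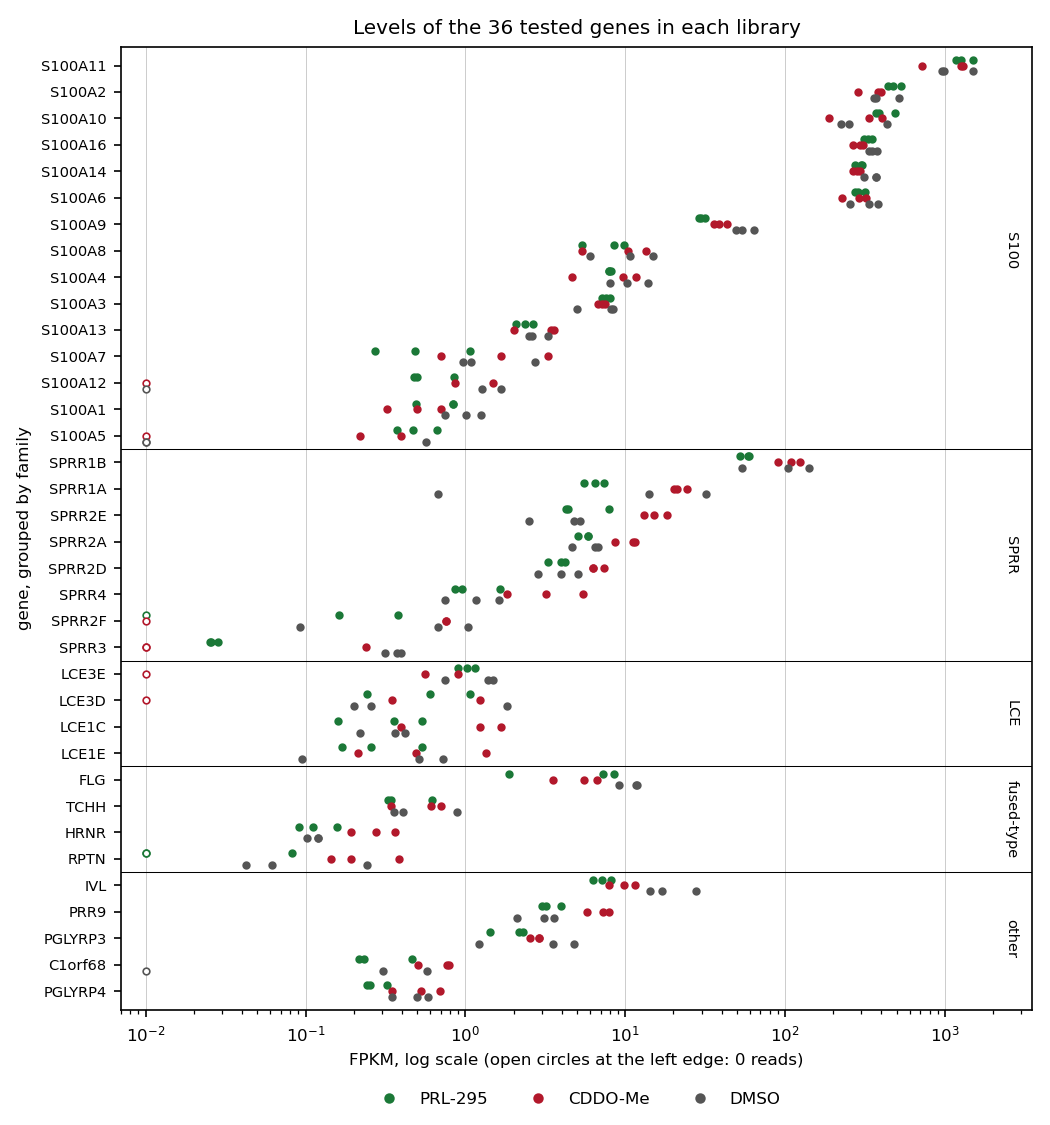
Level of each of the 36 tested genes in each library, in FPKM on a log scale, by family. Each point is a library of PRL-295 (green), CDDO-Me (red) or DMSO (grey), and open circles at the left edge stand for 0 reads. The 6 S100 genes at the top average 298 to 1185 FPKM, and the LCE genes all average under 1 FPKM.

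Differences were tested gene by gene with edgeR's quasi-likelihood test in a single fit of the 9 libraries, with Benjamini-Hochberg adjustment over 16239 genes and a threshold of 0.05. For PRL-295 against DMSO, 2 of the 36 tested genes passed, both lower, where 0.684% of all tested genes passed and 0.222% passed as lower. For CDDO-Me against DMSO, 3 of 36 passed, 2 higher and 1 lower, where 9.22% of all did, 4.65% higher and 4.57% lower. For PRL-295 against CDDO-Me, 0 of 36 passed, where 1.59% of all tested genes passed, 0.905% higher and 0.684% lower. At an unadjusted p under 0.05 there were 9 of 36 in that comparison and 2796 of 16239 among all tested genes, and DESeq2 called 3 of 36 and 5.55% of all. The median log2 fold change of the 36 was -0.25 with PRL-295 and -0.01 with CDDO-Me, both against DMSO, and -0.38 for PRL-295 against CDDO-Me, beside medians over all tested genes of -0.01, 0.01 and -0.01. Both comparisons against DMSO use the same DMSO libraries, so a gene's values in them are not independent.

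Involucrin (IVL, ENSG00000163207, hg38 chromosome 1, 152908545 to 152911886) is the early scaffold of the envelope, to which other precursors are joined. In libraries 1 to 3 of each group it had 15.4, 14.0 and 17.7 CPM with PRL-295, 24.8, 16.8 and 20.8 CPM with CDDO-Me, and 58.4, 31.1 and 36.3 CPM with DMSO. Every library of either compound lay below every DMSO library, and the PRL-295 and CDDO-Me libraries overlapped. IVL averaged 15.7 ± 1.86 CPM with PRL-295, 20.8 ± 3.99 CPM with CDDO-Me and 41.9 ± 14.5 CPM with DMSO (SD, n = 3 each). The PRL-295 level was 2.67-fold below that of DMSO, a log2 fold change of -1.42 with a 95% interval of -1.96 to -0.87 (edgeR adjusted p = 0.0312). With CDDO-Me it was 2.01-fold lower than with DMSO, at -1.01 with an interval of -1.55 to -0.47 (edgeR adjusted p = 0.0295). In whole cultures, fewer cells that make IVL and less IVL RNA per cell cannot be told apart. PRL-295 and CDDO-Me differed by -0.41, with an interval of -0.95 to 0.13, which the test did not call (edgeR adjusted p = 0.430).

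Both IVL calls depend on single libraries, while the direction held without any of them. The PRL-295 call was lost without PRL-295 library 1 (edgeR adjusted p = 0.145), 2 (0.105) or 3 (0.1), CDDO-Me library 3 (0.0638), or DMSO library 1 (0.126) or 3 (0.0706), at log2 fold changes of -1.50 to -1.10. The CDDO-Me call was lost without CDDO-Me library 2 (0.0903) or 3 (0.0773), or DMSO library 1 (0.119) or 3 (0.0580), at -1.10 to -0.70. For both compounds the smallest change was the one without DMSO library 1, which had the highest IVL value. Correcting each library for GC content and length left the PRL-295 call when the trend came from genes of at least 1 CPM (-1.30, adjusted p = 0.0361) and ended it when the trend came from all tested genes (-1.30, 0.107). The CDDO-Me call ended with either trend (-0.61, adjusted p = 0.221, and -0.51, 0.442). Limma on log2(FPKM + 1) and log2(FPKM + 0.1) also lost the PRL-295 call (0.0555 and 0.0533).

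The SPRR genes encode short proline-rich proteins that are cross-linked by transglutaminases as bridges in the envelope. Summed over the 11 genes, they had 48.8, 48.5 and 54.9 CPM in PRL-295 libraries, 87.3, 113 and 101 CPM in CDDO-Me libraries and 108, 45.8 and 81.3 CPM in DMSO libraries. The DMSO libraries were spread across the range of both compounds, and the PRL-295 libraries lay below those of CDDO-Me. The 6 genes of the SPRR2 subfamily summed to 10.3, 12.2 and 14.7 CPM with PRL-295, to 22.2, 28.5 and 26.9 CPM with CDDO-Me and to 11.9, 11.2 and 12.4 CPM with DMSO. In this subfamily the CDDO-Me libraries lay above all 6 others, which overlapped among themselves.

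SPRR2E (ENSG00000203785, chromosome 1, 153093135 to 153106184) had 3.2, 3.24 and 5.92 CPM in PRL-295 libraries, 9.54, 13.3 and 11 CPM in CDDO-Me libraries and 3.77, 1.84 and 3.47 CPM in DMSO libraries. The CDDO-Me libraries stood clear of the rest, and PRL-295 and DMSO overlapped. SPRR2E was 3.73-fold higher with CDDO-Me than with DMSO, a log2 fold change of 1.90 with an interval of 1.12 to 2.68 (edgeR adjusted p = 0.01). With PRL-295 the log2 fold change against DMSO was 0.45, with an interval of -0.32 to 1.22 (adjusted p = 0.667). The CDDO-Me call held in all 20 alternatives, with adjusted p of at most 0.0477 when a library was left out.

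SPRR2A and SPRR2D, close relatives of SPRR2E, did not pass. SPRR2A had 3.57, 4.27 and 4.18 CPM with PRL-295, 6.10, 8.11 and 7.78 CPM with CDDO-Me and 4.49, 3.35 and 4.75 CPM with DMSO (CDDO-Me against DMSO: log2 fold change 0.81, edgeR adjusted p = 0.0823). SPRR2D had 3.48, 4.30 and 4.48 CPM with PRL-295, 6.6, 6.55 and 7.70 CPM with CDDO-Me and 2.96, 5.40 and 4.12 CPM with DMSO (0.74, adjusted p = 0.135). For both, all CDDO-Me libraries were above all others, and PRL-295 overlapped with DMSO. Without CDDO-Me library 1, the library that stood apart, the SPRR2A value was 0.92 with an adjusted p of 0.0289. These genes share sequence: 32.7% of the 50-base words in SPRR2A transcripts, 23.4% in SPRR2E and 19.3% in SPRR2D also occur in another gene. How reads that fit several genes were counted is not given, so the share of each SPRR2 gene is uncertain.

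SPRR1B, the most abundant gene of the family, is known to rise as keratinocytes become squamous. It had 36.4, 33.6 and 37.2 CPM in PRL-295 libraries, 55.4, 76.4 and 66.6 CPM in CDDO-Me libraries and 86.0, 33.4 and 63.6 CPM in DMSO libraries. The PRL-295 libraries were tightly grouped and the DMSO libraries widely spread, so each compound overlapped with DMSO while PRL-295 lay below CDDO-Me throughout. Against DMSO its log2 fold change was -0.77 with PRL-295, with an interval of -1.37 to -0.17 (edgeR adjusted p = 0.257), and 0.12 with CDDO-Me, with an interval of -0.48 to 0.71 (0.830). SPRR1A, its neighbour and relative, had 1.48, 2.06 and 1.78 CPM with PRL-295, 5.69, 6.52 and 5.41 CPM with CDDO-Me and 8.50, 0.18 and 3.75 CPM with DMSO. Its DMSO values enclosed those of both compounds, and no comparison passed. SPRR4 had 0.70, 0.65 and 1.22 CPM with PRL-295, 3.97, 1.32 and 2.33 CPM with CDDO-Me and 1.17, 0.55 and 0.84 CPM with DMSO. Its CDDO-Me libraries were the 3 highest, most of all library 1 (log2 fold change 1.57 against DMSO, adjusted p = 0.135, and 1.09 without that library).

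SPRR3 and SPRR2F were near the floor. SPRR3 stood at 0.04 CPM in each PRL-295 library, at 0, 0.34 and 0 CPM with CDDO-Me and at 0.53, 0.46 and 0.56 CPM with DMSO, so that the DMSO libraries were the highest. It had 59 reads in all, and neither compound's difference from DMSO passed (edgeR adjusted p = 0.383 for PRL-295 and 0.391 for CDDO-Me).

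PRR9 (ENSG00000203783, chromosome 1, 153217584 to 153219317) lies beyond the SPRR2 genes and encodes a proline-rich protein. It had 4.88, 3.81 and 4.0 CPM in PRL-295 libraries, 7.07, 9.54 and 8.76 CPM in CDDO-Me libraries and 2.55, 4.42 and 3.78 CPM in DMSO libraries. As with SPRR2E, the CDDO-Me libraries lay above the other 6, which overlapped. PRR9 was 2.35-fold higher with CDDO-Me than with DMSO, a log2 fold change of 1.24 with an interval of 0.60 to 1.87 (edgeR adjusted p = 0.0250). With PRL-295 the value was 0.24, with an interval of -0.39 to 0.86 (adjusted p = 0.822). The CDDO-Me call was lost without PRL-295 library 3 (0.0530), CDDO-Me library 2 (0.0966) or 3 (0.0676), or DMSO library 1 (0.0955), 2 (0.0535) or 3 (0.0756), while the log2 fold change stayed between 1.04 and 1.41. Unlike the SPRR2 genes, PRR9 shares no 50-base word with another gene.

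**Figure D2:**
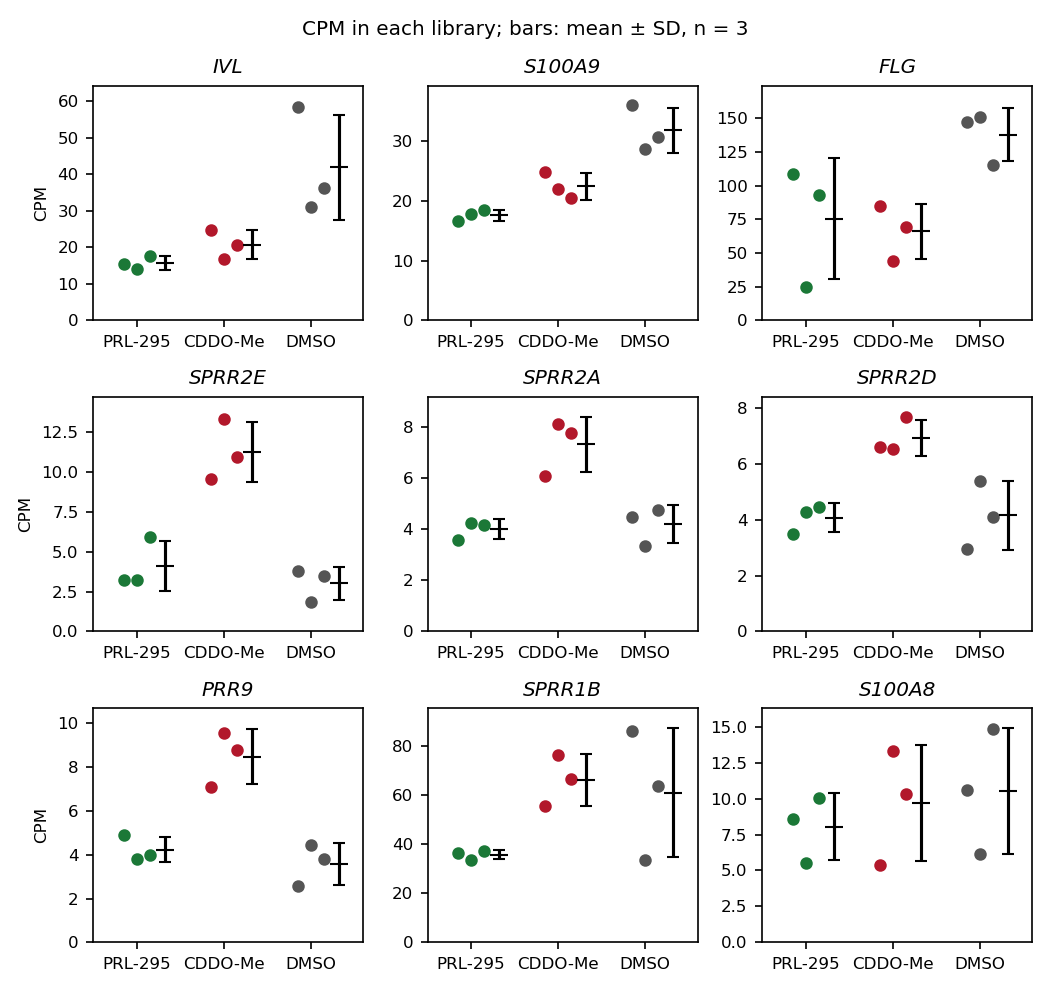
CPM of 9 genes in each library of PRL-295 (green), CDDO-Me (red) and DMSO (grey), with the mean and SD of each group (n = 3) as a black bar beside the points. IVL and S100A9 are lower in all compound libraries than in all DMSO libraries, and SPRR2E, SPRR2A, SPRR2D and PRR9 are highest in the CDDO-Me libraries.

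Among the fused-type genes, FLG had the most reads. Filaggrin is processed from a long precursor into units that bundle keratin and then yield the natural moisturising factors of skin. FLG had 109, 24.7 and 93.0 CPM in PRL-295 libraries, 84.7, 44.2 and 69.6 CPM in CDDO-Me libraries and 147, 151 and 115 CPM in DMSO libraries. All compound libraries were below all DMSO libraries, with PRL-295 library 2 far below its group. The log2 fold change against DMSO was -0.87 with PRL-295, with an interval of -1.80 to 0.06 (edgeR adjusted p = 0.423), and -1.06 with CDDO-Me, with an interval of -1.99 to -0.12 (0.143). Neither passed, but the CDDO-Me difference did without PRL-295 library 2 (adjusted p = 0.0117) and in a fit of the 6 CDDO-Me and DMSO libraries (0.0266). FLG overlaps the antisense gene FLG-AS1, which had 94 reads in all against 23699 for FLG.

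Hornerin (HRNR), a filaggrin-like protein of the envelope, had 1.52, 1.10 and 0.89 CPM with PRL-295, 3.50, 1.83 and 2.62 CPM with CDDO-Me and 1.13, 1.17 and 0.97 CPM with DMSO. The CDDO-Me libraries were the 3 highest, but the difference from DMSO did not pass (log2 fold change 1.28, edgeR adjusted p = 0.128). Trichohyalin (TCHH), a protein of the hair follicle's inner root sheath, ranged from 2.36 to 4.37 CPM with PRL-295, from 2.38 to 4.86 with CDDO-Me and from 2.47 to 6.15 with DMSO, with full overlap. Repetin (RPTN) had 117 reads in all and was at 0 in PRL-295 libraries 1 and 2.

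None of the 6 S100 genes with the most reads passed the test in any comparison. S100A10, which pairs with annexin A2 at the membrane, had 567, 769 and 608 CPM with PRL-295, 291, 615 and 512 CPM with CDDO-Me and 336, 390 and 665 CPM with DMSO. Its groups overlapped. S100A16 had 531, 616 and 565 CPM with PRL-295, 449, 494 and 518 CPM with CDDO-Me and 629, 580 and 590 CPM with DMSO. S100A14 had 348, 401 and 388 CPM with PRL-295, 337, 354 and 373 CPM with CDDO-Me and 463, 404 and 467 CPM with DMSO. Both lay lower in every CDDO-Me library than in any DMSO library, without passing (log2 fold change -0.30 and edgeR adjusted p = 0.0814 for S100A16, -0.32 and 0.0711 for S100A14). With the GC and length correction both directions turned, to 0.09 for S100A16 (adjusted p = 0.685) and 0.03 for S100A14 (0.921).

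Of the calprotectin subunits S100A9 passed the test and S100A8 did not, and the difference between them was not itself tested. S100A9 (ENSG00000163220, chromosome 1, 153357854 to 153361027) had 16.6, 17.8 and 18.5 CPM in PRL-295 libraries, 24.8, 22.0 and 20.5 CPM in CDDO-Me libraries and 36.1, 28.7 and 30.7 CPM in DMSO libraries. The 3 groups did not overlap, with PRL-295 lowest and DMSO highest. S100A9 averaged 17.6 ± 0.95 CPM with PRL-295, 22.4 ± 2.20 CPM with CDDO-Me and 31.8 ± 3.80 CPM with DMSO (SD, n = 3 each). The PRL-295 level was 1.81-fold below that of DMSO, a log2 fold change of -0.85 with an interval of -1.21 to -0.50 (edgeR adjusted p = 0.0408). The CDDO-Me difference was -0.50, with an interval of -0.86 to -0.15 (adjusted p = 0.0724), and that between PRL-295 and CDDO-Me was -0.35, with an interval of -0.70 to 0.003 (0.295).

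The S100A9 call for PRL-295 was lost without PRL-295 library 1 (edgeR adjusted p = 0.211), 2 (0.111) or 3 (0.198), CDDO-Me library 3 (0.0799), or DMSO library 1 (0.249), 2 (0.126) or 3 (0.114), at log2 fold changes of -0.92 to -0.75. A replicate block lost it too (0.106). With the GC and length correction, its trend from genes of at least 1 CPM, the PRL-295 value was -0.80 (adjusted p = 0.164). The trend from all tested genes gave an adjusted p of 0.567. For CDDO-Me against DMSO the correction brought the value to -0.04 with the first trend (adjusted p = 0.953) and to 0.12 with the second (0.896). Without CDDO-Me library 1 the CDDO-Me value was -0.58 and passed (0.0401).

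S100A8 had 8.57, 5.52 and 10.1 CPM in PRL-295 libraries, 5.38, 13.3 and 10.3 CPM in CDDO-Me libraries and 10.6, 6.14 and 14.9 CPM in DMSO libraries. Its groups overlapped fully, at a log2 fold change of -0.39 for PRL-295 (edgeR adjusted p = 0.776) and -0.12 for CDDO-Me (0.883), both against DMSO. Per length, S100A9 exceeded S100A8 in every library, by 3.38, 5.60 and 3.21 times in FPKM with PRL-295, 8.04, 2.88 and 3.46 times with CDDO-Me and 5.93, 8.16 and 3.60 times with DMSO. The ratio varied as widely within groups as between them.

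Except for S100A1, the remaining S100 genes overlapped between each compound and DMSO. S100A11 and S100A2 ranged from 799 to 1057 and from 688 to 860 CPM with PRL-295, from 487 to 871 and from 444 to 615 CPM with CDDO-Me, and from 641 to 1010 and from 549 to 804 CPM with DMSO. S100A2 was higher in every PRL-295 library than in any CDDO-Me library, without passing (log2 fold change 0.48, edgeR adjusted p = 0.175). S100A1 was lower in every CDDO-Me library than in any DMSO library, again without passing (-0.99, adjusted p = 0.203), and it overlaps S100A13 on the other strand. S100A6, S100A4, S100A3 and S100A13 had log2 fold changes of -0.39 to 0.12 against DMSO. S100A7 (psoriasin), S100A12 and S100A5 averaged at most 1.01 CPM in each group, and their intervals spanned more than 3 log2 units.

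The 4 tested LCE genes summed with the other 14 to 2.58, 1.87 and 1.26 CPM in PRL-295 libraries, 5.26, 2.10 and 2.16 CPM in CDDO-Me libraries and 1.54, 2.70 and 2.06 CPM in DMSO libraries. CDDO-Me library 1 alone stood high. LCE1C and LCE1E reached 1.16 and 1.75 CPM there, LCE3E and LCE3D were at 0 there, and none of the 4 tested LCE genes passed in any comparison (edgeR; 0 at an unadjusted p under 0.05). With no filter on low counts LCE1B, whose reads came mostly from that library, was called higher with CDDO-Me than with DMSO. C1orf68, a gene for a skin-specific protein, averaged 0.29 CPM with PRL-295, 0.65 with CDDO-Me and 0.28 with DMSO. PGLYRP3 and PGLYRP4 encode peptidoglycan recognition proteins that bind bacterial cell walls. PGLYRP3 had 2.54, 1.71 and 2.74 CPM with PRL-295, 3.38, 3.33 and 2.96 CPM with CDDO-Me and 5.51, 1.44 and 4.09 CPM with DMSO, and its DMSO libraries enclosed the rest. PGLYRP4 was lower in every PRL-295 library (0.57 to 0.74 CPM) than in any DMSO library (0.77 to 1.31 CPM), without passing (adjusted p = 0.699).

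**Figure D3:**
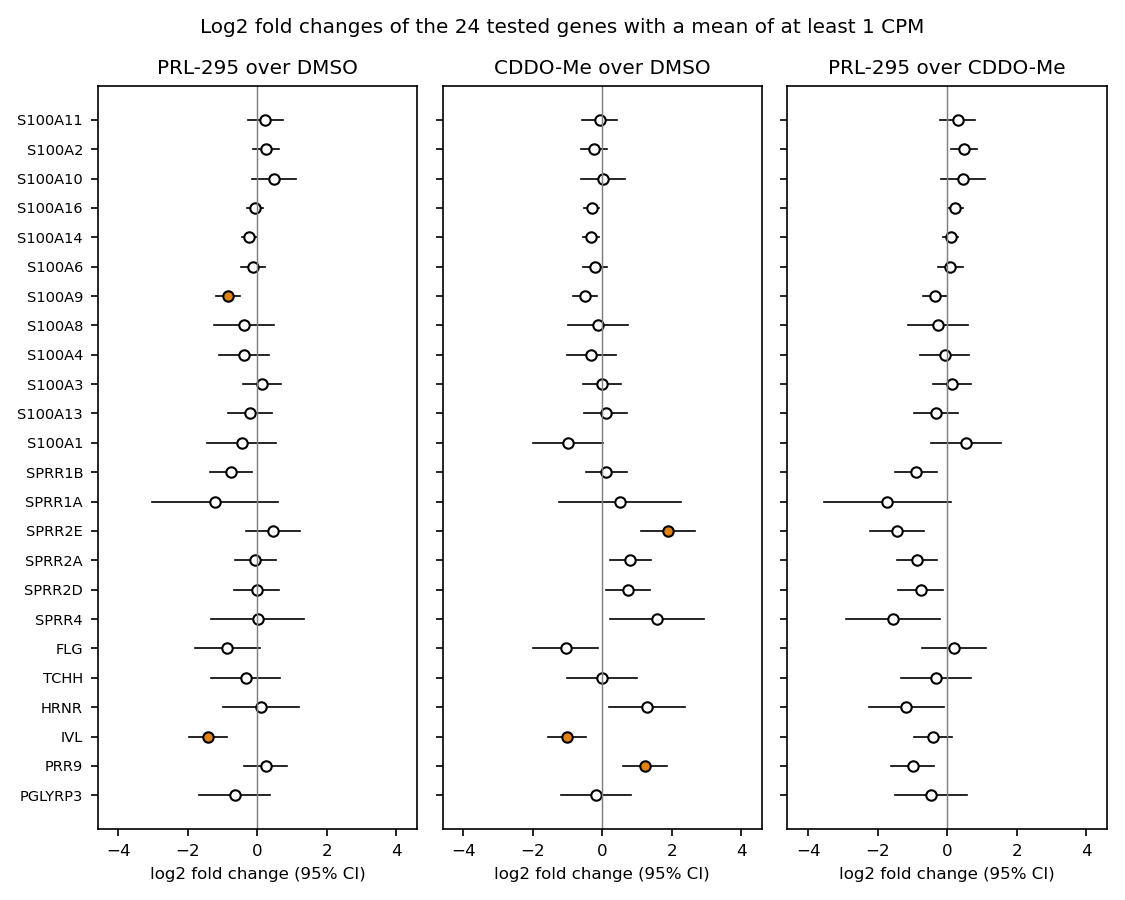
Log2 fold change with its 95% interval for the 24 tested genes that averaged at least 1 CPM, for PRL-295 over DMSO, CDDO-Me over DMSO and PRL-295 over CDDO-Me. Filled points passed at an adjusted p under 0.05: IVL and S100A9 lower with PRL-295, IVL lower and SPRR2E and PRR9 higher with CDDO-Me.

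The direct comparison sets 10 µM of PRL-295 against 250 nM of CDDO-Me, so the doses differ. All 8 tested SPRR genes had negative log2 fold changes there, with a median of -1.42, 6 of them without overlap between the libraries of PRL-295 and CDDO-Me. Of all tested genes, 24.6% had no such overlap, 10.2% with PRL-295 lower. SPRR3 at -1.46 and SPRR2F at -1.38, both near that median, were near the floor, with intervals of -5.00 to 2.07 and -4.88 to 2.12. The SPRR2 genes also share sequence, so the 8 values are not separate results. SPRR2E stood at -1.45, with an interval of -2.22 to -0.68 (edgeR adjusted p = 0.0694), SPRR1B at -0.89 (0.132) and SPRR2A at -0.87 (0.132). PRR9 stood at -1.0, with an interval of -1.63 to -0.37 (adjusted p = 0.110). None passed over all genes, though the intervals of SPRR2E, SPRR1B, SPRR2A and PRR9 leave out 0. With the GC and length correction and its trend from genes of at least 1 CPM all 4 passed, at -1.83 for SPRR2E (adjusted p = 0.0163), -1.26 for SPRR1B (0.0303), -1.25 for SPRR2A (0.0288) and -1.35 for PRR9 (0.0289). With the trend from all tested genes SPRR2E alone of these 4 passed (0.0318), against 0.0516 for SPRR1B, 0.0781 for SPRR2A and 0.0795 for PRR9.

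Counted without regard to the test, 6 of the 36 genes were lower in every PRL-295 library than in any DMSO library and 0 were higher, where 13.7% and 13.5% of all tested genes were, 27.2% together. The 6 were IVL, FLG, SPRR3, PGLYRP4, S100A9 and S100A14. For CDDO-Me against DMSO 7 were lower and 6 higher, where 16.3% and 15.5% of all were, 31.8% together. The 6 higher were SPRR2E, SPRR2A, SPRR2D, SPRR4, HRNR and PRR9. Between PRL-295 and CDDO-Me, 13 were lower and 3 higher with PRL-295, where 10.2% and 14.4% of all were.

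**Figure D4:**
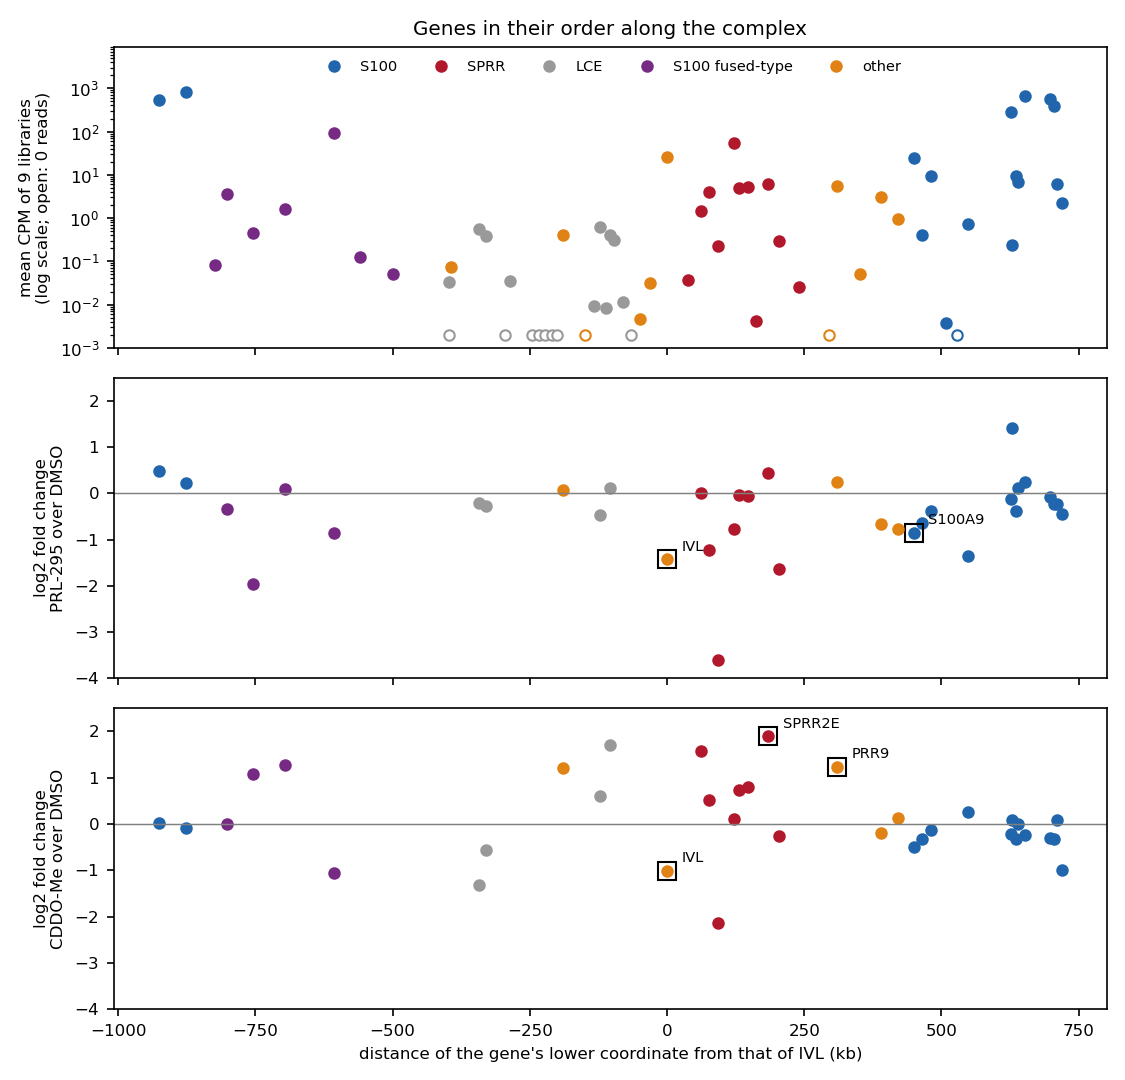
Genes in their order along the complex, by distance in kb from the lower coordinate of IVL and coloured by family: mean CPM over 9 libraries on a log scale (top, open circles for 0 reads), and log2 fold change of PRL-295 over DMSO (middle) and of CDDO-Me over DMSO (bottom). Squares mark the genes that passed, and the S100 genes at both ends have the highest levels.

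Along the chromosome the complex did not move as a block. IVL, lower with CDDO-Me, lies between the LCE genes and the SPRR block that holds SPRR2E. In the flanks of 1 Mb on either side, 54 of 65 protein-coding genes were tested. With PRL-295 none passed there by edgeR, beside 0.684% of all tested genes. At an unadjusted edgeR p under 0.05 there were 7 of 54, beside 2093 of 16239 among all tested genes. With CDDO-Me RFX5 and ADAR fell, 3.70% of the tested flank genes, beside 9.22% of all tested genes. Of 28 non-coding rows inside the window 4 were tested, and none passed for PRL-295 or CDDO-Me against DMSO by edgeR, nor at an unadjusted p under 0.05.

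Genes outside chromosome 1's complex that build or control the same envelope were counted from lists. Beside the counts from these lists, 0.684% of all tested genes passed for PRL-295 against DMSO, 9.22% for CDDO-Me against DMSO and 1.59% between the compounds. Of 30 envelope and barrier genes, 25 were tested, of which 4% passed with PRL-295 and 12% with CDDO-Me against DMSO. With PRL-295 against DMSO 1 fell, KRT1, a keratin of suprabasal cells (log2 fold change -4.50, edgeR adjusted p = 0.0352). KRT1 had 3.61, 1.45 and 1.92 CPM in PRL-295 libraries and 101, 7.65 and 49.2 CPM in DMSO libraries, so its DMSO level varied widely. With CDDO-Me 2 rose and 1 fell. Those that rose were CSTA, a protease inhibitor of the envelope (log2 fold change 2.18, edgeR adjusted p = 0.0189), and the tight junction gene CLDN1 (0.55, 0.0146). The desquamation protease gene KLK5 fell (-0.95, 0.00216). CSTA was also higher in every PRL-295 library than in any DMSO library, without passing (2.14, adjusted p = 0.0809). Between PRL-295 and CDDO-Me the CSTA difference was -0.04 (0.979). In that direct comparison 16% of the 25 passed, 3 lower with PRL-295 and 1 higher. Those lower were TGM1, KRT1 (log2 fold change -5.05, edgeR adjusted p = 0.0137) and CLDN1 (-0.71, 0.0115). KLK5 was higher (0.73, 0.0215). In CDDO-Me libraries KRT1 had 126, 61.1 and 42.4 CPM. TGM1, the transglutaminase that cross-links involucrin and SPRR proteins, had 5.66, 4.68 and 3.63 CPM in PRL-295 libraries, 17.2, 14.2 and 15 CPM in CDDO-Me libraries and 12.1, 7.74 and 8.74 CPM in DMSO libraries. The 3 groups did not overlap, and PRL-295 lay below CDDO-Me (log2 fold change -1.73, adjusted p = 0.00748), while its differences from DMSO did not pass (0.107 for PRL-295 and 0.0954 for CDDO-Me).

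Of 26 listed regulators of the complex, 25 were tested. Against DMSO 4% of these passed with PRL-295 and 16% with CDDO-Me, beside 0.684% and 9.22% of all tested genes. FOSL1, a subunit of the AP-1 factor, rose with PRL-295, to 515 ± 28.3 CPM against 282 ± 17.5 CPM with DMSO (SD, n = 3 each; log2 fold change 0.87, edgeR adjusted p = 0.00231). JUN, another AP-1 subunit, rose with CDDO-Me to 61.0 ± 4.87 CPM, against 39.1 ± 4.67 CPM with DMSO (0.64, adjusted p = 0.0177), as did the basal keratinocyte factor TP63 (0.60, 0.0447). Both were also higher in every PRL-295 library than in any DMSO library, without passing (JUN 0.50, adjusted p = 0.148, and TP63 0.29, 0.511). Neither passed between PRL-295 and CDDO-Me (JUN -0.14, 0.657, and TP63 -0.32, 0.350). The epithelial factor ELF3 had 10.1, 12.3 and 10.1 CPM in PRL-295 libraries, 0.72, 0.68 and 0.30 CPM in CDDO-Me libraries and 24.9, 16.3 and 20.2 CPM in DMSO libraries. ELF3 was lower in every PRL-295 library than in any DMSO library, without passing (-0.92, adjusted p = 0.179), and it fell with CDDO-Me (-5.14, 1.49e-05). GRHL3, a barrier factor, fell with CDDO-Me too (-0.73, 0.0496). Directly compared, FOSL1 (0.71, edgeR adjusted p = 0.0069) and ELF3 (4.23, 0.000146) were higher with PRL-295 than with CDDO-Me. Of 11 S100 partners and S100 genes elsewhere, 6 were tested. The annexin gene ANXA11 (-1.27, adjusted p = 7.77e-05) and BSG, which encodes a receptor of S100A9 (-0.53, 0.0257), fell with CDDO-Me, and none passed with PRL-295.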

How the data were processed

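RNA sequencing of HaCaT cells gave 9 libraries, which were grouped by the treatment in the labels. Per the labels' protocols, paired-end reads were aligned by STAR 2.5 and reads per gene were counted by HTSeq 0.6.1, and the build is hg38 per the submitters' processing notes. The deposited counts are raw whole reads per gene. The deposited FPKM could be recomputed from count, gene length and library total to within 0.1% in 100% of cases. The annotation release, the strand setting and the handling of reads that match several genes are not given in the sources used here.

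Counts were tested with the edgeR 4.0.16 quasi-likelihood test (R 4.3.3) in a single fit of 9 libraries, with filterByExpr by group, TMM scaling and Benjamini-Hochberg adjustment over 16239 genes at a threshold of 0.05. The CPM values of genes carry TMM factors, and the floor does not. The pipeline was tested on simulated data. Intervals are 95% intervals of the log2 fold change, and floors cover counting error only. The rule for named genes took every tested gene of the complex. From the outside lists of envelope genes, regulators and S100 partners it took those that passed in any comparison. The genes and lists were chosen with earlier results of these data known. TGM1 was described in full after its values were seen. Same-numbered libraries of different groups deviated with correlations of -0.119 to 0.114, so the numbers were not taken to pair them. Shared words of 50 bases were counted in GENCODE 29 transcripts, and promoters were read from RefSeq (GRCh38.p14). All 117 listed symbols matched. Alternatives were DESeq2 1.42.0, limma 3.58.1 on log2 FPKM, other scalings and filters, a GC and length correction, a replicate block, fits of 6 libraries and leaving out each library.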

Additional observations from a re-analysis of the deposited data

How the results depend on the processing

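Where a count of called genes of the complex (3 for CDDO-Me against DMSO, 2 for PRL-295 against DMSO, 0 for PRL-295 against CDDO-Me) moved by over 1.5 times, the cause was not tested. With no filter on low counts it was 5 in each comparison, beside 8.59%, 2.83% and 4.28% of all genes. DESeq2 gave 7 for CDDO-Me against DMSO (15.5% of all) and 3 for the direct comparison (5.55% of all). Limma on log2(FPKM + 1) gave 6, 1 and 2 in the order of the comparisons above, and on log2(FPKM + 0.1) it gave 5, 1 and 1. The GC and length correction, with its trend from genes of at least 1 CPM, gave 1 for PRL-295 against DMSO and 4 for the direct comparison. With the trend from all tested genes, an alternative added after the data were seen, these were 0 and 1. With a replicate block the counts were 2, 1 and 0, but the numbers do not pair the libraries. Leaving out each library gave 1 to 5 for CDDO-Me against DMSO, 0 to 2 for PRL-295 against DMSO and 0 for the direct comparison. The count of all called genes moved with the settings as well, for CDDO-Me against DMSO to 400 without DMSO library 2 and to 2803 without CDDO-Me library 1, against 1497. The 5 calls of the main fit were each set against 20 alternatives, and 32 of these values were no longer called. Of 2112 alternative values for single genes in all, called or not in the main fit, 34 were newly called. Among called values 0 changed sign, while 116 changed sign where neither fit called the gene. Detection of changes in genes under 1 CPM was not tested.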
